A study of Mus musculus with 35 samples.

Results

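The 47 interferon-stimulated genes described here are antiviral effectors, nucleic-acid sensors, regulators and transcription factors that rise in cells exposed to interferon. They were chosen as a list of mouse gene symbols that leaves out the guanylate-binding and most immunity-related GTPases and the MHC genes. The rule that defines the list uses gene names and no measured value, though the list was drawn up with earlier results of these data known. All 47 were found among the 19138 genes with counts, and all 47 passed the filter on low counts. GTPases that remain in the list are the dynamin-like Mx1 and Mx2 and the immunity-related GTPase Ifi47.

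The study measured gene expression by RNA-seq in sorted stem cells of mouse blood, the LT-HSCs (long-term haematopoietic stem cells), from which all blood lineages descend. The deposited values are raw read counts per gene for 35 libraries, each made from 1000 sorted cells. Every mouse carried SclCre, a Cre recombinase transgene driven by regulatory sequence of Scl that is active in haematopoietic stem cells. Ezh2 encodes the catalytic subunit of Polycomb repressive complex 2, which methylates lysine 27 of histone H3, and JAK2V617F is the activating kinase mutation found in most patients with polycythaemia vera. The groups were SclCre JAK2V617F; Ezh2 -/- with 6 libraries, SclCre JAK2V617F; Ezh2 +/- with 8, SclCre JAK2V617F with Ezh2 +/+ with 6, SclCre; Ezh2 -/- with 4, SclCre; Ezh2 +/- with 7, and SclCre with Ezh2 +/+ with 4. They are called JAK2V617F Ezh2 -/-, JAK2V617F Ezh2 +/-, JAK2V617F, Ezh2 -/-, Ezh2 +/- and SclCre cells below. The labels give 2 experimental batches of 14 and 21 libraries and the sex of each mouse, 20 female and 15 male, but neither an age nor which libraries came from separate animals, so the p-values measure the spread between libraries.

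Type I interferons bind a receptor made of Ifnar1 and Ifnar2, whose kinases Jak1 and Tyk2 phosphorylate STAT proteins. A complex of STAT proteins with Irf9 then binds the interferon-stimulated response element (ISRE) in the promoters of its target genes, while STAT dimers formed in response to interferon gamma bind the gamma-activated site (GAS). In haematopoietic stem cells, interferons are known to drive quiescent cells into cycle, and stem cells carry a basal level of some interferon-stimulated genes without infection.

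Libraries held 13554182 to 48557175 counts, with a median of 24914541, and the 47 genes took 0.504% to 0.88% of them. The files count 1 part of Ezh2, 178 bases long, separately from the gene. That part had 0 counts in all 6 JAK2V617F Ezh2 -/- libraries, which with a limit of 3 counts allows at most 0.213% to 0.634% of the Ezh2 counts of each, and it took 0% to 0.478% in the 4 Ezh2 -/- libraries, against 6.34% to 9.27% in JAK2V617F libraries and 6.02% to 8.72% in SclCre libraries. It took 4.08% to 8.49% in JAK2V617F Ezh2 +/- libraries and 0% to 9.497% in Ezh2 +/- libraries, where 1 library (batch 1 replicate 3) had 0 counts, batch 2 replicates 1 and 3 had 1.74% and 1.77%, and batch 1 replicates 1 and 2 had 9.497% and 8.66%. The Ezh2 +/- library batch 1 replicate 1 is labelled male but had 394 counts of Xist per 1e6 counts of the library, where the other male libraries had 0.44 to 14.8. The comparison of Ezh2 +/- with SclCre cells is therefore also given without batch 1 replicates 1 and 3. All other levels are counts divided by library sizes scaled with TMM, a normalisation for composition, and given as counts per 1e6 (CPM). Of the stem cell marker list, the 10 genes summed to 3523 to 4405 CPM in JAK2V617F Ezh2 -/- cells and 3234 to 4693 CPM in JAK2V617F cells, and to 5442 to 6335 CPM in Ezh2 -/- cells and 4712 to 5633 CPM in SclCre cells. Markers of dendritic cells, which carry interferon-stimulated transcripts at rest, summed to at most 3.92 CPM in any library.

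In control SclCre cells the membrane proteins dominated the list. Per kilobase of transcript, Ifitm3 stood at 1083 ± 202 CPM per kb, Ifitm2 at 918 ± 152 and Ifitm1 at 879 ± 182 (SD, n = 4 libraries), and these 3 levels lay within the spread between libraries. Ifitm proteins sit in cell and endosomal membranes and block the fusion of viruses, and they are expressed in stem cells without interferon. The next levels were 162 ± 15.4 CPM per kb for Lgals3bp, a secreted glycoprotein, and 149 ± 24.6 for Bst2, or tetherin, which holds budding virus particles at the cell surface. At the low end were Ifit3 at 3.42 ± 1.22, Mx2 at 2.92 ± 1.27, Trim21 at 2.04 ± 0.666 and Mx1 at 0.965 ± 0.575 CPM per kb. Libraries of a group varied more for some genes than for others: the SD of log2(CPM + 1), pooled over the 6 groups, had a median of 0.36 over the 47 genes, and was 0.16 for Sp100 and 0.17 for Dtx3l but 0.88 for Mx1 and 0.83 for Ifit3. Reads of the neighbouring and related Ifitm1, Ifitm2 and Ifitm3, of the Ifit and Oas families, of Trim30a and of the Ifi27 pair may have been divided between copies, so values of single members of these families are uncertain. Parp9 and Dtx3l, and Rsad2 and Cmpk2, are neighbouring genes whose reads could be mixed, since use of strand in the counting is not given in the sources used here.

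The mean of log2(CPM + 1) over the 47 genes, taken per library, was highest in the groups without Ezh2 and lowest in JAK2V617F cells. It was 6.37 ± 0.18 in JAK2V617F Ezh2 -/- cells (SD, n = 6), 5.97 ± 0.13 in JAK2V617F Ezh2 +/- cells (n = 8) and 5.78 ± 0.11 in JAK2V617F cells (n = 6). The same mean was 6.38 ± 0.16 in Ezh2 -/- cells (n = 4), 6.15 ± 0.25 in Ezh2 +/- cells (n = 7) and 6.003 ± 0.06 in SclCre cells (n = 4). All 6 JAK2V617F Ezh2 -/- libraries lay above every JAK2V617F library, and all 4 Ezh2 -/- libraries lay above every SclCre library. The order among JAK2V617F genotypes was Ezh2 -/-, Ezh2 +/-, Ezh2 +/+, with 5 of 6 JAK2V617F Ezh2 -/- libraries above every JAK2V617F Ezh2 +/- library and 7 of 8 JAK2V617F Ezh2 +/- libraries above every JAK2V617F library. Ezh2 +/- libraries spread widely: 5 lay above every SclCre library and 2 below all of them. The highest of the 7, at 6.504, was the library with no counts in the Ezh2 part, and without the 2 doubted libraries the group stood at 6.13 ± 0.21 (n = 5).

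**Figure D1:**
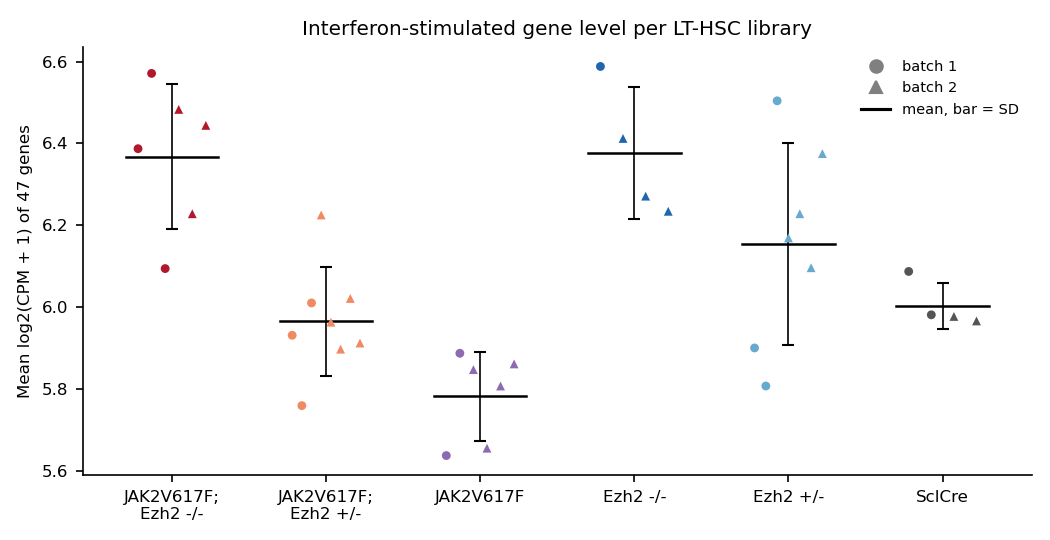
Mean of log2(CPM + 1) over the 47 interferon-stimulated genes in each library (points, 1 per library, by group, with the shape giving the batch) with the group mean (line) and SD (bar). JAK2V617F Ezh2 -/- libraries lie between 6.09 and 6.57 and JAK2V617F libraries between 5.64 and 5.89, with no overlap.

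Taken within batches, the difference between JAK2V617F Ezh2 -/- and JAK2V617F cells in this mean was 0.59 in batch 1 and 0.59 in batch 2, against 0.59 over both. Among female libraries alone it was 0.63. The difference between Ezh2 -/- and SclCre cells was 0.37 over both batches, 0.55 in batch 1, where 1 Ezh2 -/- library was present, and 0.33 in batch 2. JAK2V617F minus SclCre was -0.22, with all 6 JAK2V617F libraries below every SclCre library. JAK2V617F Ezh2 -/- minus Ezh2 -/- was -0.01. Each library is bulk RNA, so a smaller share of cells expressing a gene and less of its RNA per cell cannot be told apart.

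The comparison of JAK2V617F Ezh2 -/- with JAK2V617F cells addresses what loss of both Ezh2 alleles changes in stem cells with the kinase mutation. The JAK2V617F Ezh2 -/- libraries were labelled 5 female and 1 male, and the JAK2V617F libraries 2 female and 4 male. Sex was a term of the fit. Of the 47 genes, 9 rose and 0 fell at an adjusted p under 0.05 in edgeR's quasi-likelihood test with Benjamini-Hochberg adjustment over 14945 genes. The 9 are 19.1% of the list, where 0.401% of all genes tested rose and 0.0736% fell. They were Ifit1, Zbp1, Ifitm3, Ifi44, Xaf1, Ifitm1, Oasl2, Usp18 and Irf7, and they come from 7 of the 11 roles into which the list was divided. At an unadjusted p under 0.05, 27 of the 47 were higher and 0 lower, against 4.12% and 3.01% of all genes. The log2 change was positive for 45 of the 47, with a median of 0.48, where the median over all genes was 0.01. The range of 12 genes did not overlap between the groups, each higher in JAK2V617F Ezh2 -/- cells (25.5% of the list, against 0.796% of all genes): Ifit1, Oas2, Oasl1, Oasl2, Rsad2, Zbp1, Usp18, Parp9, Dtx3l, Ifi27, Ifi27l2a and Rtp4.

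**Figure D2:**
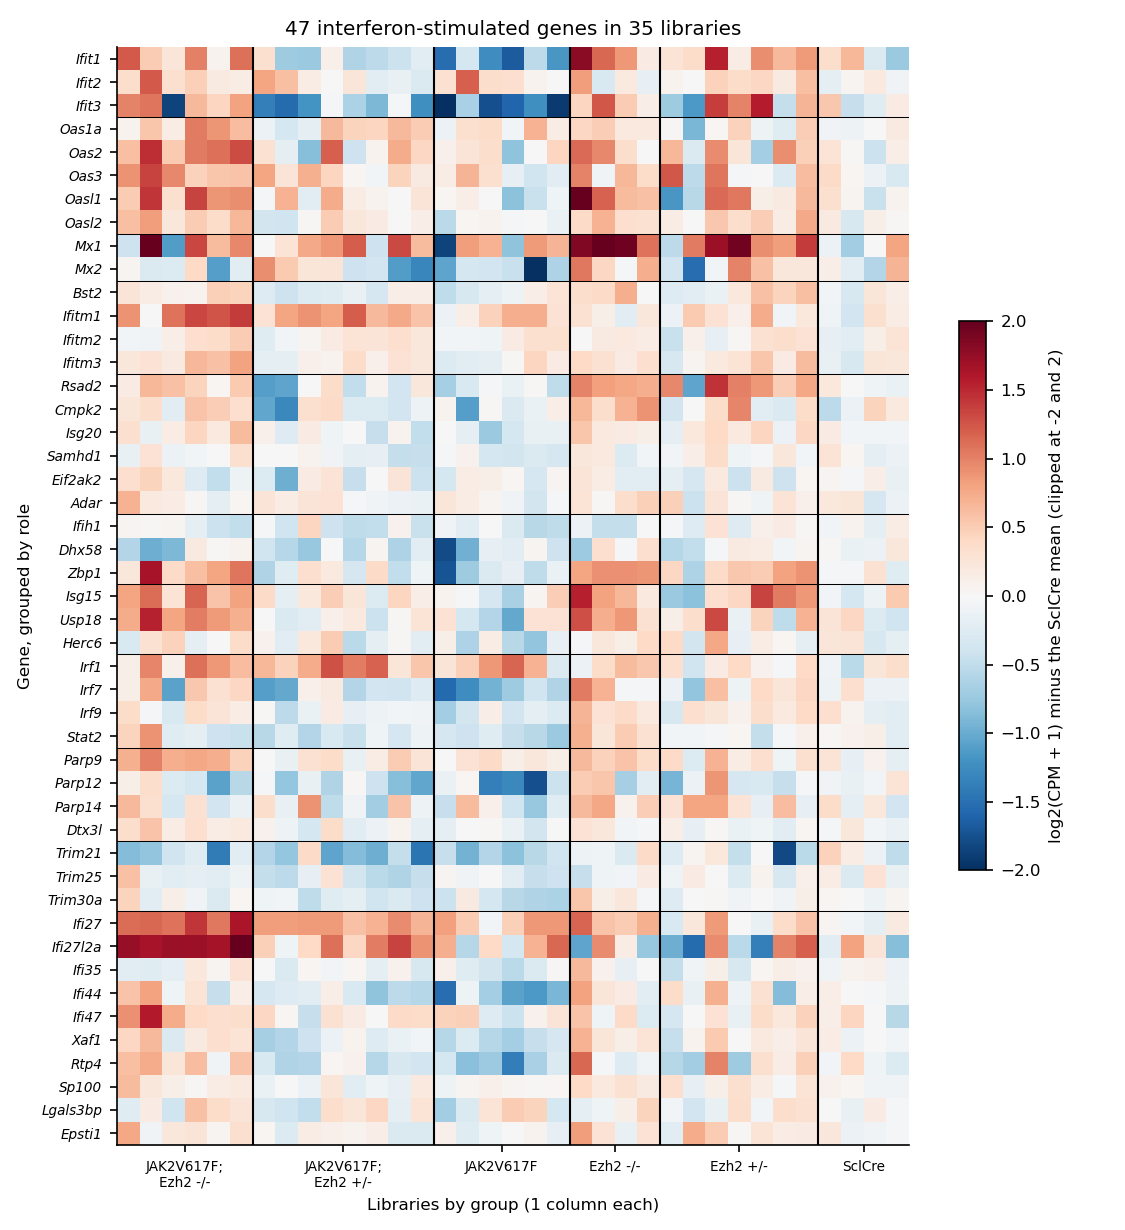
Each of the 47 genes (rows, by role) in each of the 35 libraries (columns, by group), as log2(CPM + 1) minus the mean of the gene in SclCre cells. JAK2V617F Ezh2 -/- and Ezh2 -/- columns hold mostly positive values, with 30 to 39 and 33 to 39 genes above the SclCre mean per library, where JAK2V617F libraries hold 10 to 21.

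The IFIT proteins bind viral RNA that lacks the host cap structure and block its translation. Ifit1 had a lowest, median and highest value of 51.4, 84.9 and 116 CPM in JAK2V617F Ezh2 -/- cells, against 14.9, 20.7 and 38.1 CPM in JAK2V617F cells. The lowest JAK2V617F Ezh2 -/- library was above the highest JAK2V617F library, and all 4 SclCre libraries, at 28.96, 40.2, 63.2 and 78.3 CPM, lay between the medians of both groups. The log2 change of Ifit1 was 1.64 ± 0.29 (SE), with an adjusted p of 0.00248 in edgeR's quasi-likelihood test, and the call held when any 1 of the 12 libraries was left out, the highest adjusted p then being 0.0217. Ifit3 had the largest change of the list on the log2 scale, 2.50 ± 0.65, but from few reads: its median was 11.5 CPM in JAK2V617F Ezh2 -/- cells and 1.37 CPM in JAK2V617F cells, where 1 library (batch 1 replicate 1) had 0 counts, and the adjusted p was 0.0752. Ifit2, which lies beside both and in the same family, was flat at -0.02 ± 0.20.

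Promoter sequence was read for the members from RefSeq annotation on GRCm38.p6, a later build than the mm9 on which the counts were made, as windows of 250 bases before to 50 bases after each start. Windows were found for 36 members, 45 in all, and Rtp4, Parp14, Oas2, Parp9, Usp18, Mx2, Ifi27, Mx1, Dhx58, Ifi27l2a and Zbp1 had none. The ISRE core searched for was GAAANNGAAA on either strand, and the GAS was TTCNNNGAA, which reads the same on both strands. The ISRE core was in 15 of the 45 windows (33.3%), against 1131 of 32851 windows of the same length over all genes (3.44%), and the GAS in 10 of 45 (22.2%), against 2726 of 32851 (8.3%). Of the 4 windows with both, 2 had matches that overlap. Set beside the calls, it was in 3 of 9 windows of members called in any comparison (33.3%) and in 12 of 36 windows of members called in none (33.3%), some of which have several windows, and 4 of the 13 members called had no window. The promoters of 3 members that rose are shown 5′ to 3′ on the strand of the gene, with the first transcribed base as position 1 and the ISRE core in capitals. Ifit1 (chr19:34640639-34640938, plus strand) has the core 2 times before the start, with first bases at -104 and -85. Ifitm3 (chr7:141010695-141010994, minus strand) has it 2 times just after the start, with first bases at 3 and 20. Ifi44 (chr3:151749861-151750160, minus strand), shown for contrast, has no exact match to the core in this window. Variants of the core were not searched for, so an ISRE of other sequence may be present there.
Ifit1: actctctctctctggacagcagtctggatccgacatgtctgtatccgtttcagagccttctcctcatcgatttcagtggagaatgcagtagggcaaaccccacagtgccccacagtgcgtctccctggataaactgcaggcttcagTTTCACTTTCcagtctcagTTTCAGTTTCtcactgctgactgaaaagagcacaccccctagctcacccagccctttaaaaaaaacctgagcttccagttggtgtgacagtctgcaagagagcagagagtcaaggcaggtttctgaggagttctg
Ifitm3: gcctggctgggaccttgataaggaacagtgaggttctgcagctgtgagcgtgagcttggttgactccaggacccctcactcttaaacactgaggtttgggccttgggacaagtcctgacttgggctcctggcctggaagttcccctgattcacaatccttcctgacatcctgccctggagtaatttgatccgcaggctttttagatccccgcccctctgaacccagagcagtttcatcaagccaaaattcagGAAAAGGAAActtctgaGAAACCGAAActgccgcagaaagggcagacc
Ifi44: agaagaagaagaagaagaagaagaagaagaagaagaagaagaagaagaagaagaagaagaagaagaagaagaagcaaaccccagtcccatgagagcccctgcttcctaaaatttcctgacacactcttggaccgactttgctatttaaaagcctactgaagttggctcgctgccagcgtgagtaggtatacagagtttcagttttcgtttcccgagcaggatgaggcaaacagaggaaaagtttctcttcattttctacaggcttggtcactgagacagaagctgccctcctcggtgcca

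The membrane group rose in part. Ifitm3 had a lowest, median and highest value of 788, 943 and 1212 CPM in JAK2V617F Ezh2 -/- cells, against 570, 655 and 929 CPM in JAK2V617F cells. The groups overlapped through 1 JAK2V617F library at the top of its group, and the log2 change was 0.54 ± 0.11 (adjusted p = 0.00819, edgeR's quasi-likelihood test), a call that held without any 1 library. Ifitm1 had a lowest, median and highest value of 729, 1642 and 1906 CPM in JAK2V617F Ezh2 -/- cells, against 669, 945 and 1205 CPM in JAK2V617F cells. Among JAK2V617F Ezh2 -/- libraries, 5 of 6 were above every JAK2V617F library, and the remaining one was below all JAK2V617F libraries but 1. The log2 change of Ifitm1 was 0.77 ± 0.17 (adjusted p = 0.0239, edgeR's quasi-likelihood test), and this call was lost without 7 of the 12 libraries, each left out in turn. Bst2, at 0.48 ± 0.13, had an adjusted p of 0.097, and Ifitm2, at 0.16 ± 0.09, one of 0.777 by the same test.

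The OAS enzymes make 2′-5′ oligoadenylate, which activates RNase L, and Oasl1 and Oasl2 are OAS-like proteins. All 5 genes had positive changes, with a median of 0.69, and 4 had an unadjusted p under 0.05. Oasl2 passed the adjusted test, with a lowest, median and highest value of 196, 246 and 299 CPM in JAK2V617F Ezh2 -/- cells, against 115, 166 and 176 CPM in JAK2V617F cells. These ranges did not overlap, the log2 change was 0.61 ± 0.14 and the adjusted p 0.0239 in edgeR's quasi-likelihood test, and the call was lost without any 1 of 4 of the 12 libraries. Oasl1 and Oas2 did not overlap either, at log2 changes of 1.08 and 0.88, but did not pass. The dynamin-like Mx1 and Mx2 trap viral nucleocapsids and are annotated as transcribed pseudogenes in the reference used for names. Their changes were 0.77 ± 0.71 and 0.34 ± 0.49, with unadjusted p of 0.284 and 0.487 in edgeR's quasi-likelihood test.

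Among the sensors, Zbp1 binds left-handed Z-form nucleic acid and can start necroptosis. It had a lowest, median and highest value of 21.8, 30.7 and 59.8 CPM in JAK2V617F Ezh2 -/- cells, against 4.88, 13.8 and 16.7 CPM in JAK2V617F cells. The ranges did not overlap, the log2 change was 1.497 ± 0.28 (adjusted p = 0.00377, edgeR's quasi-likelihood test) and the call held without any 1 library. The RNA helicases Ifih1, or MDA5, and Dhx58, or LGP2, had changes of 0.05 and 0.29 and did not pass. In the ISG15 system, a ubiquitin-like tag and its enzymes, Usp18, which removes the tag and dampens the type I receptor, had a lowest, median and highest value of 77.2, 83.8 and 139 CPM in JAK2V617F Ezh2 -/- cells, against 22.6, 47.02 and 57.4 CPM in JAK2V617F cells. The ranges did not overlap, and the log2 change was 1.08 ± 0.25 (adjusted p = 0.0303, edgeR's quasi-likelihood test). That call was lost without any 1 of 7 of the 12 libraries. Isg15 itself, at 0.83 ± 0.30, had an adjusted p of 0.365 by the same test.

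Of the transcription factors, Irf7 amplifies the interferon response by inducing interferon genes. It had a lowest, median and highest value of 35.2, 96.2 and 127 CPM in JAK2V617F Ezh2 -/- cells, against 24.8, 41.8 and 56.1 CPM in JAK2V617F cells. A single JAK2V617F Ezh2 -/- library lay inside the JAK2V617F range and the other 5 above it. The log2 change of Irf7 was 1.16 ± 0.28 with an adjusted p of 0.0442 in edgeR's quasi-likelihood test, and leaving out any 1 of 10 of the 12 libraries ended the call, with adjusted p up to 0.222. Irf9 and Stat2, the partners of the ISRE-binding complex, were at 0.48 ± 0.15 and 0.50 ± 0.17 and did not pass, and Irf1, a factor induced by interferon gamma, was at 0.07 ± 0.19.

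Xaf1, an antagonist of the apoptosis inhibitor XIAP, had a lowest, median and highest value of 37.9, 57.4 and 73.7 CPM in JAK2V617F Ezh2 -/- cells, against 28.6, 32.1 and 38.0 CPM in JAK2V617F cells. A single JAK2V617F Ezh2 -/- library fell just inside the JAK2V617F range, and the log2 change was 0.76 ± 0.17 (adjusted p = 0.0192, edgeR's quasi-likelihood test). Ifi44, a cytoplasmic protein of little-known biochemistry, had a lowest, median and highest value of 85.5, 137 and 207 CPM in JAK2V617F Ezh2 -/- cells, against 40.4, 59.1 and 109 CPM in JAK2V617F cells. Its ranges overlapped through the highest JAK2V617F library, and the log2 change was 1.003 ± 0.22 (adjusted p = 0.0192, edgeR's quasi-likelihood test). The Xaf1 call was lost without any 1 of 3 libraries and that of Ifi44 without 1, JAK2V617F batch 1 replicate 1. Ifi27l2a, a member of the ISG12 family, lay at 9.91 to 12.9 CPM in all 6 JAK2V617F Ezh2 -/- libraries, against 1.33 to 6.67 CPM in JAK2V617F cells. These ranges did not overlap, but the test, at a log2 change of 1.30 ± 0.63, gave an adjusted p of 0.689 in edgeR.

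**Figure D3:**
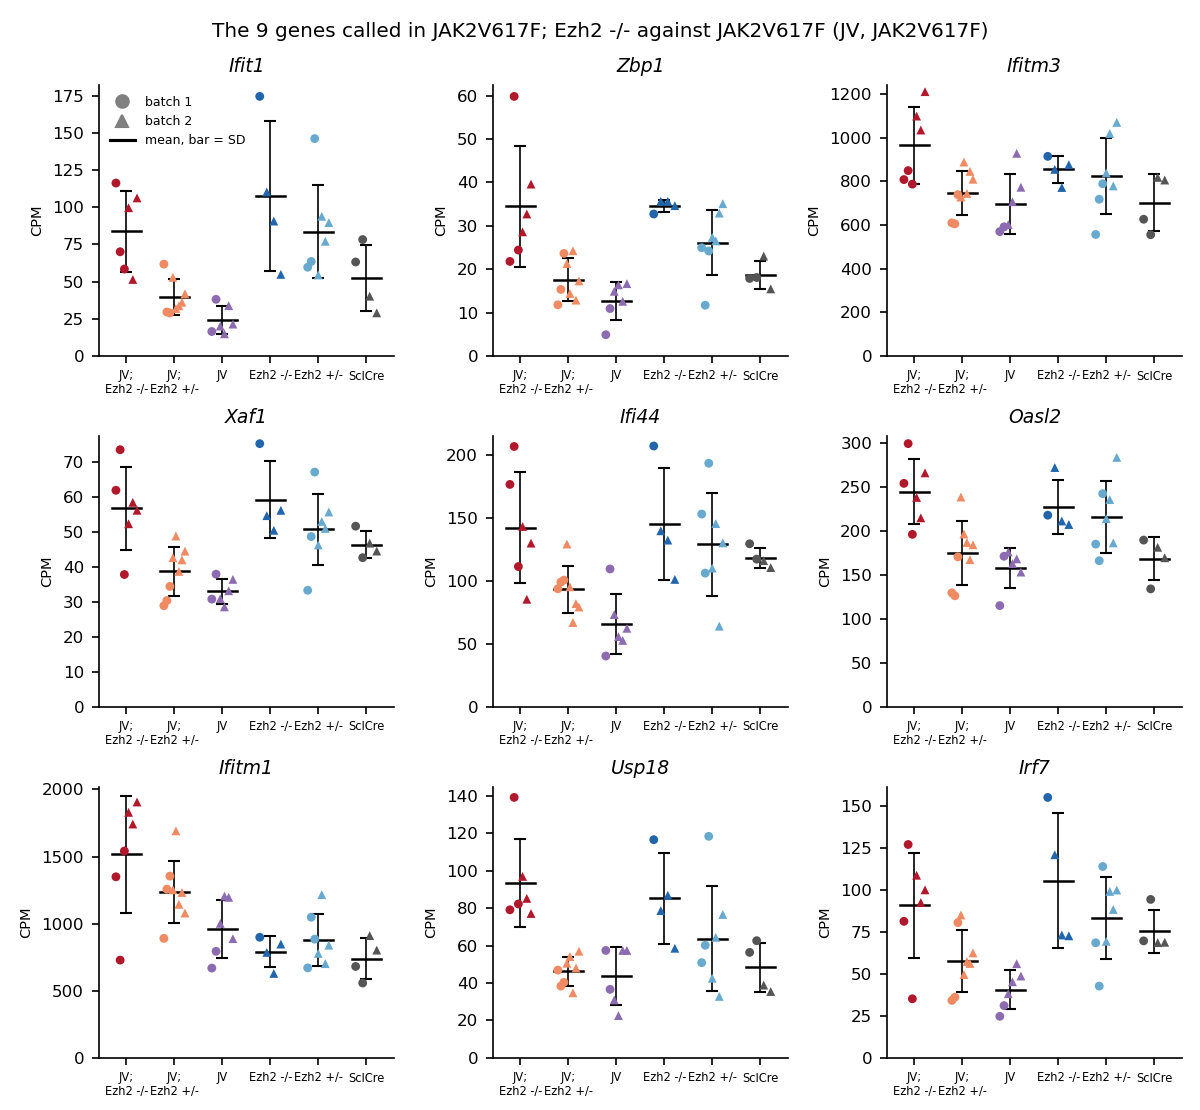
CPM (linear axis from 0) in each library of the 9 genes called in JAK2V617F Ezh2 -/- against JAK2V617F cells, by group, with 1 point per library, the group mean as a line and the SD as a bar. Ifit1 and Zbp1 points of JAK2V617F Ezh2 -/- cells lie above all JAK2V617F points, while those of Ifitm1 and Irf7 overlap through 1 library.

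Members near zero in this comparison were the RNA-dependent kinase Eif2ak2 (PKR) at 0.02, the RNA deaminase Adar at 0.07 and the antibody receptor Trim21 at -0.04, next to Ifit2 and Irf1. In the PARP and DTX group, PARP-family proteins and the ubiquitin ligase Dtx3l that pairs with Parp9, 0 of 4 passed, with Parp9 closest at 0.56 ± 0.14 (adjusted p = 0.0685, edgeR's quasi-likelihood test). Among the nucleotide and RNA effectors, 0 of 6 passed and all 6 changes were positive, with a median of 0.30. The calls as a whole leaned on 1 control library: without JAK2V617F batch 1 replicate 1, which had the lowest Oasl2 and 0 counts of Ifit3 and Mx1, 3 members were called in place of 9, and without JAK2V617F Ezh2 -/- batch 1 replicate 2 or batch 2 replicate 2 it was 5. A fit on the 12 libraries of these groups alone called 0 of the 47 and 22 of all genes, with the median log2 change of the members at 0.48. Within batch 1 alone the members' median was 0.57 with 0 called, and within batch 2 alone it was 0.46 with 3 called.

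Neutrophil marker genes moved beside this result, in the opposite direction. All 8 had negative log2 changes, with a median of -0.50 and 0 called in edgeR's quasi-likelihood test, and 0 also at an unadjusted p under 0.05. They summed to 297 to 6715 CPM in JAK2V617F Ezh2 -/- libraries, against 1444 to 17330 CPM in JAK2V617F libraries. Of the 10 stem cell markers, 5 were higher and 2 lower at an unadjusted p under 0.05 in the same test. Of all genes 4.12% were higher and 3.01% lower at that limit. The median log2 change of the stem cell markers was 0.26. B cell markers summed to 42.9 to 81.3 CPM in JAK2V617F Ezh2 -/- cells and 46.0 to 70.2 CPM in JAK2V617F cells, and T and NK cell markers to 70.9 to 168 CPM in JAK2V617F Ezh2 -/- cells and 42.0 to 198 CPM in JAK2V617F cells. Monocyte and macrophage, erythroid and megakaryocyte markers overlapped between the groups as well, and 0 markers of any list were called. Their part in the result was not tested.

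Comparing Ezh2 -/- with SclCre cells asks the same question in cells without the kinase mutation, with 4 libraries in each group and no library in common with the comparison above. No member was called in edgeR's quasi-likelihood test, where 0% of all genes rose and 0.00669% fell. At an unadjusted p under 0.05, 19 of 47 were higher and 0 lower, against 2.66% and 3.31% of all genes. DESeq2 called 3, Ifit1, Oasl1 and Ifi27, and limma-voom called 0. The log2 change was positive for 41 of 47, with a median of 0.38, where the median over all genes was -0.01. Between the groups 10 members did not overlap, each higher in Ezh2 -/- cells (21.3% of the list, against 1.43% of all genes, with 0 members lower where 1.39% of all genes were): Oas1a, Oasl1, Oasl2, Mx1, Rsad2, Zbp1, Stat2, Parp9, Ifi27 and Sp100. In both comparisons, 39 of 47 members were positive (83%), against 23.7% of all genes, 0 were negative in both, and 8 had opposite signs.

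The 2 members with the smallest p were Ifi27 and Oasl1. Ifi27, also of the ISG12 family, had 179, 188, 208 and 282 CPM in the Ezh2 -/- libraries, against 111, 121, 131 and 143 CPM in the SclCre libraries. The groups did not overlap, and the log2 change was 0.83 ± 0.21 (adjusted p = 0.415, edgeR's quasi-likelihood test). Oasl1, which represses the translation of Irf7 mRNA in mice, had 14.7, 15.4, 22.9 and 51.9 CPM in the Ezh2 -/- libraries, against 6.69, 9.97, 10.01 and 12.2 CPM in the SclCre libraries. Again no library overlapped, 1 Ezh2 -/- library stood far above the rest, and the change was 1.65 ± 0.45 (adjusted p = 0.453, edgeR's quasi-likelihood test). Zbp1 lay at 32.7 to 35.7 CPM in all 4 Ezh2 -/- libraries, above the 15.5 to 23.01 CPM of the SclCre libraries. Rsad2 (viperin), which makes a chain-terminating nucleotide, lay at 69.0 to 83.0 CPM in Ezh2 -/- libraries and at 37.5 to 47.9 CPM in SclCre libraries.

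The median log2 change of the 4 membrane genes was 0.12 here, with 0 at an unadjusted p under 0.05, where OAS genes had a median of 0.57 and 4 of 5 under that limit. Ifitm1 was at -0.04 ± 0.21. Beside these values, all 8 neutrophil markers again had negative changes, with a median of -1.79 and 0 called, and summed to 664 to 3015 CPM in Ezh2 -/- libraries, against 1911 to 7228 CPM in SclCre libraries. Their part in the result was not tested. The 4 SclCre libraries were all labelled female and 3 of the 4 Ezh2 -/- libraries male, and sex was a term of the fit. Within batch 1 the members' median was 0.95, from 1 Ezh2 -/- library, and within batch 2 it was 0.32.

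**Figure D4:**
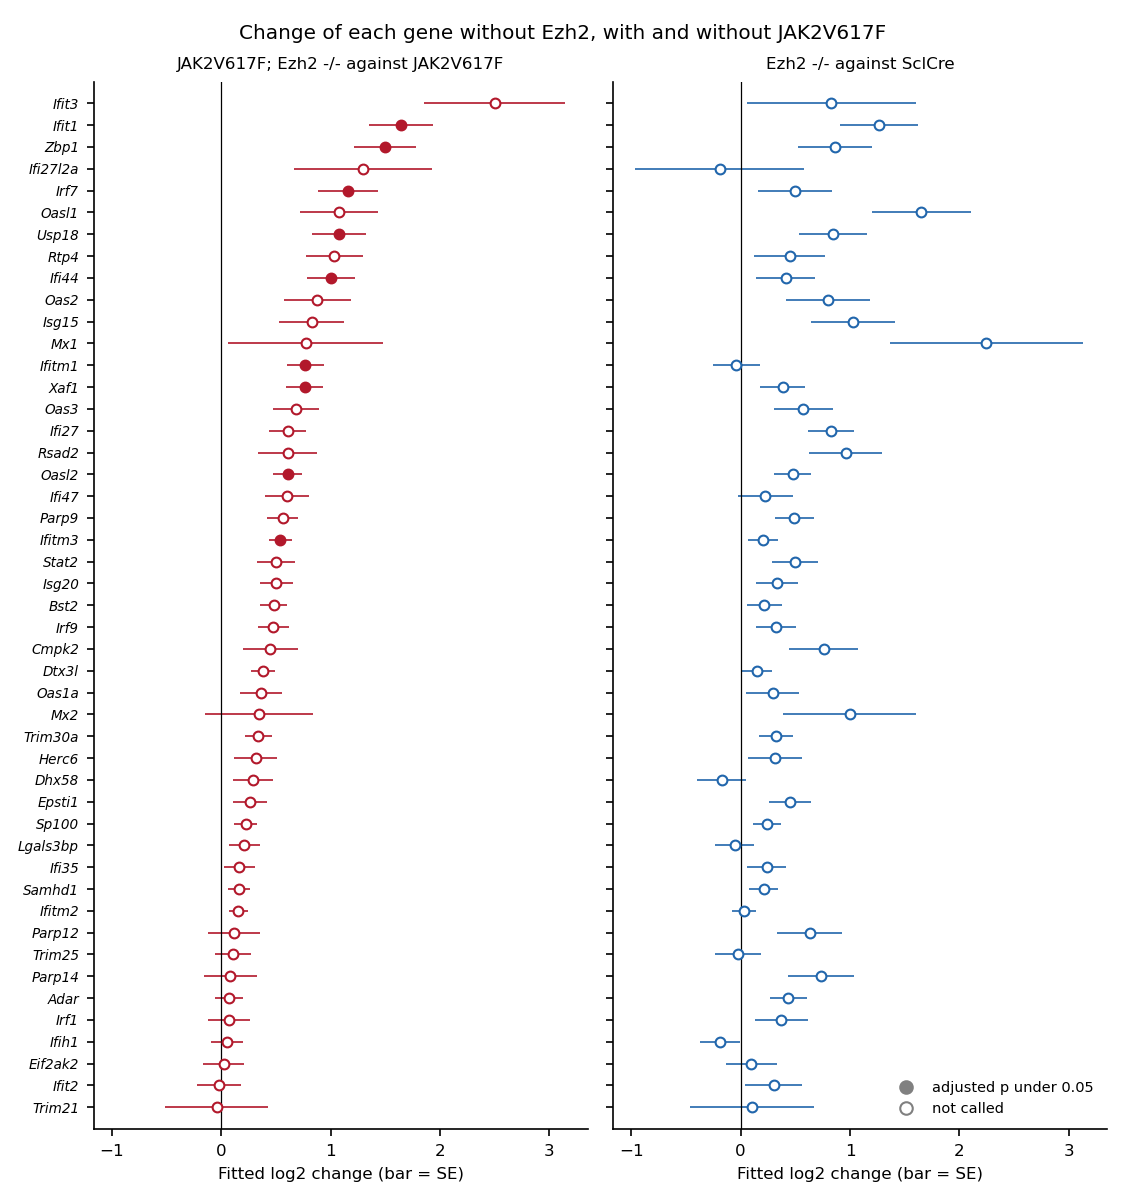
Log2 change with its SE of each of the 47 genes, ordered by its change in the first panel, for JAK2V617F Ezh2 -/- against JAK2V617F and for Ezh2 -/- against SclCre, with filled markers for genes called at an adjusted p under 0.05. Most points lie right of zero in both comparisons, 45 and 41 of 47, and Ifitm1 lies at 0.77 in the first and at -0.04 in the second.

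The mean of both Ezh2 -/- effects, which uses the libraries of both comparisons, gave 10 members higher and 0 lower, where 0.335% of all genes were higher and 0.0736% lower (edgeR's quasi-likelihood test). An unadjusted p under 0.05 was reached by 35 of 47 as higher and 0 as lower, against 4.08% and 3.73% of all genes. By edgeR's quasi-likelihood test the log2 mean effects were 1.45 ± 0.22 for Ifit1 (adjusted p = 2.18e-04), 1.18 ± 0.20 for Zbp1 (0.00164), 0.72 ± 0.13 for Ifi27 (0.00228), 0.54 ± 0.10 for Oasl2 (0.00533), 0.96 ± 0.19 for Usp18 (0.00758) and 1.36 ± 0.27 for Oasl1 (0.00953). Parp9, Ifitm3, Xaf1 and Ifi44 followed, at adjusted p of 0.011 to 0.029 in the same test. Beside this, 1 of the 10 stem cell markers was called higher and 0 lower, with a median of 0.06 over the list. At an unadjusted p under 0.05 in the same test, 4 of these 10 were higher and 1 lower. All 8 neutrophil markers were negative, with a median of -1.12 and 0 called. The part of both lists in the result was not tested. Without the single batch 1 Ezh2 -/- library the count was 6. Within batch 1 alone 0 were called, at a median of 0.68, and within batch 2 alone 3, at a median of 0.39.

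The difference of both effects was tested as an interaction. For no member did the effect of losing Ezh2 differ between cells with and without JAK2V617F at an adjusted p under 0.05 in edgeR's quasi-likelihood test, where 0.00669% of all genes had a larger and 0% a smaller effect. Unadjusted, 1 member, Ifitm1, had a larger effect in JAK2V617F cells at a p under 0.05 and 0 a smaller one, against 3.09% and 2.32% of all genes, and DESeq2 and limma-voom called 0. The 2 smallest p belonged to Ifitm1, with a difference of 0.81 ± 0.29 on the log2 scale (adjusted p = 0.661, edgeR), and Ifitm3, with 0.34 ± 0.18 (adjusted p = 0.976, edgeR). The median difference over the 47 was 0.08, where over all genes it was 0.03. Ifitm1 values in the remaining groups were 629, 786, 848 and 899 CPM in Ezh2 -/- libraries and 558, 681, 803 and 911 CPM in SclCre libraries, which overlap over most of their range.

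Comparing JAK2V617F with SclCre cells asks what the kinase mutation changes with Ezh2 intact. Only 1 member rose and 0 fell in edgeR's quasi-likelihood test, where 2.4% of all genes rose and 1.83% fell. Unadjusted p under 0.05 were found for 3 members that were higher and 9 that were lower, against 8.83% and 8.56% of all genes, and the members' median was -0.09, with 18 positive, against a median of -0.03 over all genes. Ifi27 was the gene that rose, with a lowest, median and highest value of 122, 201 and 231 CPM in JAK2V617F cells, against 111, 121, 131 and 143 CPM in SclCre cells. The lowest JAK2V617F library lay within the SclCre range and the other 5 above it. The log2 change was 0.67 ± 0.19 (adjusted p = 0.038, edgeR's quasi-likelihood test), and the call was lost without any 1 of 6 of the 10 libraries. The next smallest p belonged to Dhx58 at -0.67 ± 0.21, Ifi44 at -0.75 ± 0.24, Irf7 at -0.90 ± 0.31, Irf1 at 0.62 ± 0.22 and Ifit1 at -0.90 ± 0.33, none of which passed. In all, 6 members, Ifit3, Irf7, Stat2, Ifi44, Xaf1 and Rtp4, were lower in every JAK2V617F library than in every SclCre library (12.8% of the list, against 2.77% of all genes), and 0 were higher in every one (3.49% of all genes). The number of calls ran from 0, without SclCre batch 1 replicate 1, SclCre batch 1 replicate 2 or JAK2V617F batch 1 replicate 1, to 2 without JAK2V617F batch 1 replicate 2, and a fit without sex called 5, of which 4 lower. Within batch 1 and within batch 2 alone 0 were called, with medians of -0.13 and -0.11. In batch 2 all JAK2V617F libraries were labelled male and all SclCre libraries female, so the sex term there rested on other groups. Markers moved beside these values: 4 of 10 stem cell markers were called lower, with a median of -0.61 over the list. The same held for 1 of 5 B cell markers, with a median of -2.33. Of the 5 T and NK cell markers tested, 1 was called lower, but 4 had positive changes, with a median of 0.97 over the list. The part of these markers in the result was not tested.

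JAK2V617F Ezh2 -/- and Ezh2 -/- cells differ in the kinase mutation with Ezh2 lost in both. In edgeR's quasi-likelihood test 1 member, Ifitm1, rose and 0 fell, where 2.86% of all genes rose and 1.97% fell. Without adjustment, 5 were higher and 5 lower at a p under 0.05, against 9.87% and 8.48% of all genes. Ifitm1 had a lowest, median and highest value of 729, 1642 and 1906 CPM in JAK2V617F Ezh2 -/- cells, against 629, 786, 848 and 899 CPM in Ezh2 -/- cells. All JAK2V617F Ezh2 -/- libraries but 1 were above every Ezh2 -/- library, the log2 change was 1.05 ± 0.20 (adjusted p = 8.78e-04, edgeR's quasi-likelihood test), and the call held without any 1 of the 10 libraries. Its change in the comparison of JAK2V617F with SclCre cells, which shares no library with this one, was not called. Ifi27l2a was higher in every JAK2V617F Ezh2 -/- library than in every Ezh2 -/- library (2.13% of the list, against 3.87% of all genes), at 9.91 to 12.9 CPM against 0.663 to 5.69 CPM, with a log2 change of 2.13 ± 0.73 (adjusted p = 0.0845, edgeR's quasi-likelihood test). Rsad2 was the 1 member lower in every library (2.96% of all genes), at 42.5 to 65.8 CPM in JAK2V617F Ezh2 -/- cells against 69.0 to 83.0 CPM in Ezh2 -/- cells. Stem cell markers moved beside these values: 5 of the 10 fell, with a median of -0.47 over the list. All 8 neutrophil markers were positive, with a median of 1.36 and 0 called, and the part of both lists in the result was not tested. A fit on the libraries of these groups alone called 0. The count was 3 without JAK2V617F Ezh2 -/- batch 1 replicate 2 and 2 without Ezh2 -/- batch 2 replicate 2.

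Loss of 1 Ezh2 allele was compared in both backgrounds. Between JAK2V617F Ezh2 +/- and JAK2V617F cells 0 members were called in edgeR's quasi-likelihood test, where 0% of all genes rose and 0% fell. At an unadjusted p under 0.05, 3 were higher and 0 lower, against 2.13% and 1.74% of all genes, DESeq2 and limma-voom called 0, and 36 of 47 changes were positive with a median of 0.13. The smallest p belonged to Ifitm1, at 0.44 ± 0.16, with a lowest, median and highest value of 890, 1242 and 1691 CPM in JAK2V617F Ezh2 +/- cells, against 669, 945 and 1205 CPM in JAK2V617F cells. Ifit1 followed at 0.64 ± 0.26, with 28.9, 34.9 and 61.8 CPM in JAK2V617F Ezh2 +/- cells, against 14.9, 20.7 and 38.1 CPM in JAK2V617F cells. The ranges of both genes overlapped, both had an adjusted p of 1 in edgeR, and 0 of the 47 were free of overlap in either direction (higher in 0% and lower in 0.0401% of all genes).

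Between Ezh2 +/- and SclCre cells 0 members were called in edgeR's quasi-likelihood test, where 0% of all genes rose and 0% fell. At an unadjusted p under 0.05, 3 were higher and 0 lower, against 2.2% and 2.96% of all genes, and DESeq2 and limma-voom called 0. The changes were positive for 41 of 47, with a median of 0.19. Without the 2 doubted libraries 37 were positive, with a median of 0.14, and 0 were called, with 4 higher and 0 lower at an unadjusted p under 0.05. Rsad2 had a lowest, median and highest value of 19.3, 76.4 and 114 CPM in Ezh2 +/- cells, against 37.5, 38.8, 41.7 and 47.9 CPM in SclCre cells. Of the 7 Ezh2 +/- libraries, 6 lay above every SclCre library and 1 below them all, at a log2 change of 0.89 ± 0.29 (adjusted p = 0.901, edgeR's quasi-likelihood test). Without the 2 doubted libraries, of which batch 1 replicate 3 held the 114 CPM, Rsad2 lay between 19.3 and 83.7 CPM in Ezh2 +/- cells, at a log2 change of 0.52 (adjusted p = 0.844, edgeR). Oasl2 had a lowest, median and highest value of 166, 214 and 284 CPM in Ezh2 +/- cells, against 134, 170, 181 and 190 CPM in SclCre cells, ranges that overlap, at 0.42 ± 0.15 and the same adjusted p, and its change was 0.36 without the 2 doubted libraries (adjusted p = 0.797, edgeR). No member was free of overlap in either direction (higher in 0.161% and lower in 0.147% of all genes).

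JAK2V617F Ezh2 -/- cells were also set against JAK2V617F Ezh2 +/- cells, which asks what loss of the second allele changes. The first group is the one used in the comparison with JAK2V617F cells, so the comparisons are not independent. In edgeR's quasi-likelihood test 6 members rose and 0 fell (12.8% of the list), where 0.328% of all genes rose and 0.127% fell, and at an unadjusted p under 0.05, 29 were higher and 0 lower, against 4.14% and 4.15% of all genes. The median log2 change was 0.38, with 43 positive. Parp9 had a lowest, median and highest value of 103, 124 and 151 CPM in JAK2V617F Ezh2 -/- cells, against 66.9, 86.2 and 106 CPM in JAK2V617F Ezh2 +/- cells, and overlapped through 1 library (0.57 ± 0.13, adjusted p = 0.0283, edgeR). Usp18, at 77.2, 83.8 and 139 CPM in JAK2V617F Ezh2 -/- cells, against 34.8, 47.5 and 57.0 CPM in JAK2V617F Ezh2 +/- cells, did not overlap (0.97 ± 0.22, adjusted p = 0.0325, edgeR). Ifi27 and Ifi27l2a also had no overlap, which makes 3 members (6.38% of the list, against 0.254% of all genes).

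Bst2 had a lowest, median and highest value of 119, 130 and 157 CPM in JAK2V617F Ezh2 -/- cells, against 84.7, 94.8 and 124 CPM in JAK2V617F Ezh2 +/- cells (0.49 ± 0.11, adjusted p = 0.0374, edgeR). For Zbp1 these were 21.8, 30.7 and 59.8 CPM in JAK2V617F Ezh2 -/- cells, against 11.8, 16.3 and 24.2 CPM in JAK2V617F Ezh2 +/- cells (1.01 ± 0.24, adjusted p = 0.0417, edgeR). Ranges of both genes overlapped at the edge. Ifitm3 and Oasl2 had changes of 0.41 ± 0.10 and 0.50 ± 0.12, with adjusted p of 0.0417 and 0.0462 by the same test. The count of 6 changed with single libraries: it was 0 without JAK2V617F Ezh2 +/- batch 1 replicate 2 or batch 2 replicate 3 and without JAK2V617F Ezh2 -/- batch 1 replicate 2 or batch 2 replicate 2. It was 1 without JAK2V617F Ezh2 +/- batch 1 replicate 1 or JAK2V617F Ezh2 -/- batch 2 replicate 3, 2 without JAK2V617F Ezh2 +/- batch 2 replicate 2 or JAK2V617F Ezh2 -/- batch 2 replicate 1, and 3 without JAK2V617F Ezh2 -/- batch 1 replicate 1. Within each batch alone 0 were called, at medians of 0.36 in batch 1 and 0.34 in batch 2.

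Genes upstream of the list were counted from a separate list of 37 ligands, receptors, signalling proteins and nucleic-acid sensors, of which 31 were matched and 27 tested. Of the 27, 0 were called in the comparison of JAK2V617F Ezh2 -/- with JAK2V617F cells by edgeR's quasi-likelihood test, 2 signalling genes were higher at an unadjusted p under 0.05, and the median log2 change was 0.10, against 0.48 for the 47 members. In the comparison of Ezh2 -/- with SclCre cells 0 were called as well, at a median of 0.04. The listed genes for interferon alpha and beta were not among the 31 matched and so were not analysed here. Among the matched ligands, Ifng had 10 counts in 1 library and Ifnk 50 counts in 12 libraries. The receptor subunit Ifnar1 had 115 ± 22.3 CPM in JAK2V617F Ezh2 -/- cells and 125 ± 29.96 CPM in JAK2V617F cells (SD, n = 6 each), a log2 change of -0.03 ± 0.15. The changes of Ifnar2, of Ifngr1, a receptor subunit for interferon gamma, and of Tyk2 were -0.07, 0.08 and -0.07. The kinase Jak1 was at 0.14 ± 0.11. Socs1, a feedback inhibitor of JAK kinases, was at 1.96 ± 0.84 but had a median of 1.2 CPM over all libraries and an adjusted p of 0.562 in edgeR's quasi-likelihood test.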

How the data were processed

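RNA-seq of LT-HSCs was deposited by the authors as raw read counts per gene, 1 table per library with Entrez gene numbers. Per the labels' protocols, RNA from 1000 sorted cells was isolated with the Pico-Pure kit and prepared with the SMARTer low-input kit, which amplifies cDNA before sequencing, so low counts carry amplification noise. The submitters' processing notes name STAR and the build mm9. Not given in the sources used here are the counting tool, the annotation and whether counting used strand. Depth was 13554182 to 48557175 counts per library, and limits for a count of 0 cover counting error only.

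The counts were fitted with edgeR 4.0.16 (R 4.3.3): TMM scaling (factors 0.937 to 1.062), a filter on low counts by group that kept 14945 of 19138 genes, and a robust quasi-likelihood fit of all 35 libraries with group, batch and sex, leaving 27 residual degrees of freedom. A call needed an adjusted p (Benjamini-Hochberg, over all genes tested) under 0.05. CPM are counts divided by TMM-scaled library sizes. The fit was first tested on simulated counts. The separately counted 178-base part of Ezh2 was kept out of the tests.

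The 47 genes, the other lists and the tests were chosen with earlier results of these data known. Values are given per library for members called in a comparison, and for the 2 with the smallest p where 0 were called. Other members are given by range and role. Promoters came from RefSeq on GRCm38.p6. For 39 of the 45 members' windows, the bases just after the start were found in the early part of an annotated transcript of the gene. Alternatives were DESeq2 1.42.0, limma-voom (limma 3.58.1), other size factors, no filter, no sex term, a replicate block, the compared groups alone, each batch, females, each library left out, omission of the 2 doubted Ezh2 +/- libraries, and a non-robust fit, which was added after the data were seen. Summaries used Python 3.11.15 with pandas 2.3.3, numpy 2.4.6 and scipy 1.17.1, and plots matplotlib 3.10.9.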

Additional observations from a re-analysis of the deposited data

Results flagged for a closer look

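In 90 groups of 4 to 8 libraries, 6 values stood apart from the rest of their group by a gap test for which chance gives about 1 flag in 20 groups. The mean log2(CPM + 1) of the 47 genes was 6.09 in SclCre batch 1 replicate 1, the highest of its group, where the next was 5.98. Ifit1 was at 146 CPM in Ezh2 +/- batch 1 replicate 3, where the next library had 93.9 CPM. That library is the one with 0 counts in the Ezh2 part. Oasl2 was at 115 CPM in JAK2V617F batch 1 replicate 1, the lowest of its group, where the next had 153 CPM, and at 272 CPM in Ezh2 -/- batch 2 replicate 1, where the next had 218 CPM. Usp18 was at 139 CPM in JAK2V617F Ezh2 -/- batch 1 replicate 2, where the next had 97.0 CPM. Irf7 was at 94.3 CPM in SclCre batch 1 replicate 2, where the next had 69.7 CPM.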

How the results depend on the processing

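Of 736 values of the 27 single-gene calls under alternatives, 0 changed direction and 524 passed the threshold. These fits reuse the libraries in which the calls were made, so a kept direction is not separate evidence. All 27 missed the threshold in batch 1 alone and in females alone, and 21 missed it in batch 2 alone. The counts of members called moved more, and unless fewer samples account for it, the cause was not tested. For JAK2V617F Ezh2 -/- against JAK2V617F (9 called), DESeq2 called 14, batch 1, females and the compared groups alone 0, batch 2 alone 3, and leaving out 1 library 3 to 9. For Ezh2 -/- against SclCre (0), DESeq2 called 3 and leaving out 1 library 0. For the mean effect (10), DESeq2 called 22, batch 1 and females alone 0, batch 2 alone 3, and leaving out 1 library 6 to 13. For JAK2V617F against SclCre (1), DESeq2 called 4, the fit without sex 5, the compared groups alone 2, either batch alone 0, the fit without the doubted libraries 2, and leaving out 1 library 0 to 2. For JAK2V617F Ezh2 -/- against Ezh2 -/- (1), DESeq2 called 3, limma-voom 4, the compared groups, batch 1 and females alone 0, batch 2 alone 2, and leaving out 1 library 1 to 3. For JAK2V617F Ezh2 -/- against JAK2V617F Ezh2 +/- (6), either batch or females alone gave 0, and leaving out 1 library 0 to 7. The difference of effects and both Ezh2 +/- comparisons with Ezh2 +/+ cells gave 0 under every alternative run.

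The replicate block called 5, 2 and 2 members in JAK2V617F Ezh2 -/- against JAK2V617F, JAK2V617F against SclCre and JAK2V617F Ezh2 -/- against Ezh2 -/-. Replicate numbers did not pair the libraries: 2 of 64 same-numbered pairs correlated above 0.1 (median -0.002), and 7 of 33 libraries correlated best with their own number. The mean level differed by 0.55 between Ezh2 -/- and SclCre in batch 1 alone, where 1 Ezh2 -/- library remained, and by 0.30 to 0.42 when 1 library was left out, and between JAK2V617F Ezh2 -/- and JAK2V617F by 0.54 to 0.64. With 4 to 8 libraries per group and a common biological coefficient of variation of 0.554, small changes of genes at few counts were not detectable.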
